A study of Homo sapiens with 10 samples.

Results

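The genes described here handle cytarabine, the nucleoside analog at the center of chemotherapy for acute myeloid leukemia (AML), and they were measured by RNA-Seq in MV4-11 cells, a human AML cell line. The set holds 10 genes, SLC28A3, SLC29A1, SLC29A2, DCK, CDA, SAMHD1, RRM1, RRM2, NT5C2 and CMPK1, taken by symbol from the 19590 genes of the count table. All 10 were found, and all 10 were among the 13110 genes that averaged 10 or more normalized counts over the 8 libraries, the level set for testing. The set was chosen from results of these same libraries: SLC28A3 was known to be among the largest rises, and SAMHD1 was known to lie on chromosome 20, whose genes were known to be lower. The differences of these 2 genes are therefore described without a test, and tests are given for the other 8.

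Cells infected with the control vector (4 libraries) were compared with IRF8 KO cells (4 libraries). Both groups were MV4-11 cells grown in RPMI medium with fetal calf serum, and the labels name no drug treatment. The knockout cells had received a CRISPR vector with a guide RNA against IRF8 and were expanded as clones after limiting dilution. According to the methods, infected cells were selected with puromycin, and the clones did not all come from the same guide RNA. Which clone, and so which guide RNA, is in which library is not stated. Nothing states that the replicates were separate cultures, so the p-values measure only the spread between these libraries. IRF8 is a transcription factor of the interferon regulatory factor family that takes part in monocyte and dendritic cell development.

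Cytarabine enters cells through equilibrative carriers (SLC29A1, SLC29A2) and through the sodium-coupled carrier SLC28A3. Inside the cell, deoxycytidine kinase (DCK) adds the first phosphate, CMPK1 adds the next one, and the triphosphate that results is built into DNA. Cytidine deaminase (CDA) inactivates the drug, NT5C2 is a cytosolic nucleotidase that removes phosphate, and SAMHD1 hydrolyzes the triphosphate. Ribonucleotide reductase, made of the RRM1 and RRM2 subunits, supplies the deoxynucleotides with which the triphosphate competes. These roles are background, since neither drug uptake nor drug response was measured here.

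The values are normalized counts, which are read counts divided by 1 factor per library. Reads on genes numbered from 39560072 to 65519047 per library. IRF8 itself was read at 36891, 15192, 43016 and 22535 normalized counts in control replicates 1 to 4 and at 6377, 2401, 12903 and 7820 in the IRF8 KO replicates. The groups did not overlap, and IRF8 mRNA in the knockout was on average 25.1% of control (log2 fold change -2.11, SE 0.51, adjusted p = 0.022 in limma). The paper reports from Western blots that the knockout clones lacked IRF8 protein, which these mRNA values do not measure. Of the 12 myeloid or monocytic marker genes, 12 averaged 10 or more normalized counts, and their summed level was 100206 to 105599 in control and 126969 to 364835 in the knockout. The highest sum was that of IRF8 KO replicate 1, of which LYZ made up 248604. MPO, ITGAM, TYROBP and CD68 were called higher in limma, while CD33 (-0.34), CSF1R (-0.27) and FLT3 (-0.21) had negative log2 differences without a call. T cell markers summed to at most 20.3 normalized counts in any library, erythroid markers to at most 51.5, fibroblast markers to at most 29.0 and B cell markers to at most 923. The megakaryocyte list, carried by ITGA2B, was 5624 to 14575 in control and 2085 to 10103 in the knockout, while PF4 and PPBP were at 0. The epithelial list, carried by KRT8 and KRT18, was 1473 to 3728 in control and 60.7 to 242 in the knockout. The part of these marker levels in the member values was not tested. In RNA from whole cultures, fewer cells of a type and less RNA per cell cannot be told apart.

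Of the 8 tested members, 0 were called higher and 0 were called lower at an adjusted p below 0.05 in limma, where 8.65% of all tested genes were called higher and 9.56% lower. At an unadjusted p below 0.05, 1 of the 8, CMPK1, was lower, as were 16% of all tested genes. DESeq2 on the recovered reads called 1 of the 8 lower, again CMPK1, and 13.2% of all genes to which it gave an adjusted p. The median log2 fold change of the 8 was 0.012, beside -9.4e-04 over all tested genes. With the replicate number as a block, which raised the calls over all genes to 14.2% higher and 14.6% lower, the 8 members again gave 0 calls. Of the 8 tested members, 1, CMPK1, had control and knockout values that did not overlap, beside 25.3% of all tested genes. SLC28A3 and SAMHD1 did not overlap either, from which nothing is read, since their values chose them.

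**Figure D1:**
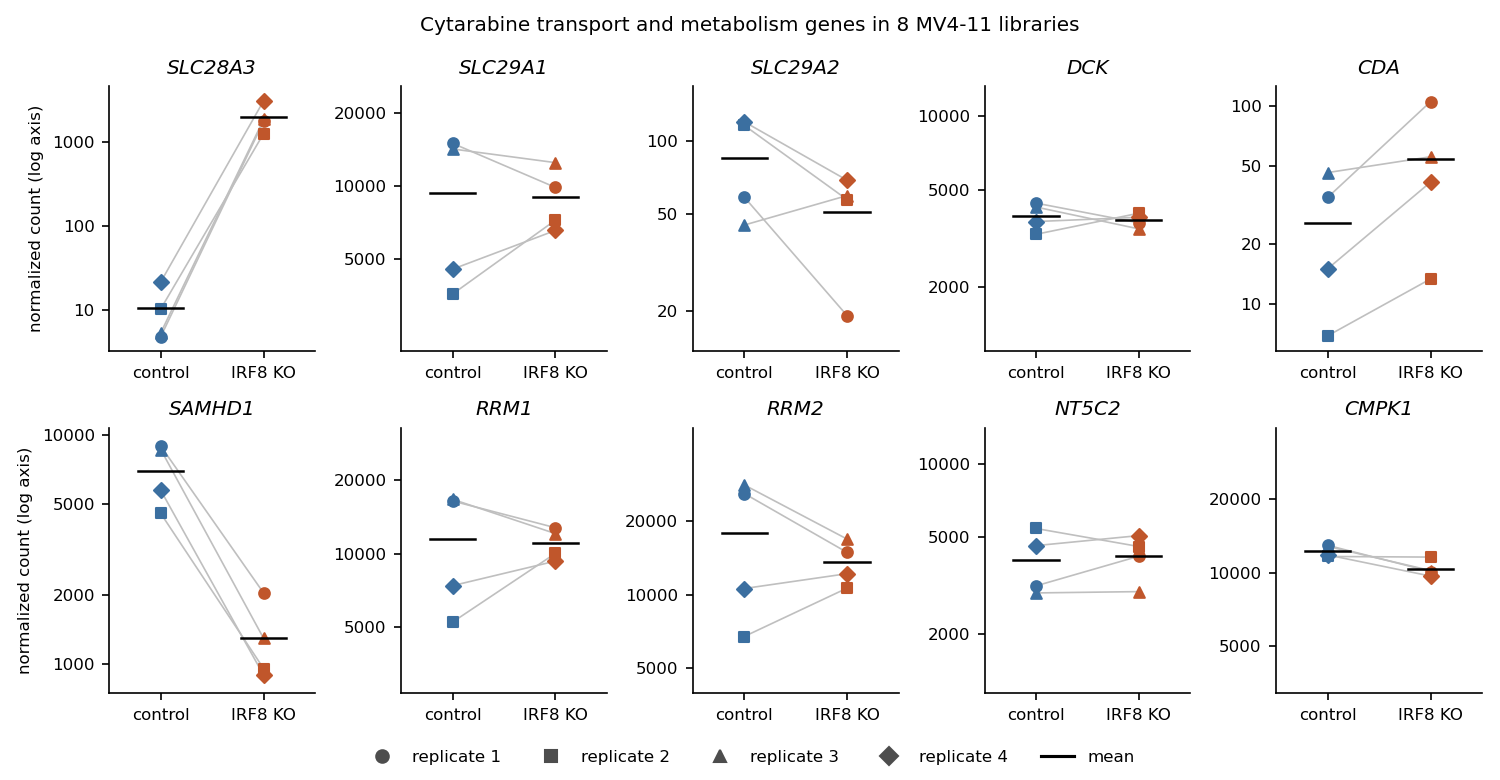
Normalized counts of the 10 genes on log axes, with a separate range per gene, in the 4 control libraries (blue) and the 4 IRF8 KO libraries (orange). Symbols mark the replicate number, gray lines join libraries with the same number, and black bars are group means. SLC28A3 lies between 4.83 and 21.7 in control and between 1270 and 3119 in the knockout, SAMHD1 is lower in each knockout library, and the other genes overlap between groups except CMPK1.

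SLC28A3 encodes the concentrative nucleoside transporter with the broadest substrate range of its family, moving both purine and pyrimidine nucleosides with sodium. It was read at 4.83, 10.4, 5.37 and 21.7 normalized counts in control replicates 1 to 4, which rest on 6, 12, 5 and 23 reads. In the IRF8 KO replicates it was read at 1776, 1270, 1870 and 3119. The carrier was thus close to the lower limit of detection in each control library and well measured in each knockout library. The mean went from 10.6 ± 7.81 to 2009 ± 786 (SD, n = 4 per group), a ratio of 190. On the log2(normalized count + 1) scale the difference was 7.59 (SE 0.46), and only 3 tested genes had a larger rise. These values chose the gene and carry no test. Because the control level rests on so few reads, the size depends on the constant added, with a difference of 7.06 when 5 in place of 1 was added. Leaving out 1 library at a time gave 7.34 to 7.99.

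The genes beside SLC28A3 on chromosome 9 did not show a difference of this size. SLC28A3 was chosen for its large rise, so nothing is read from the smaller differences of its neighbors. On one side, HNRNPK differed by -0.09 (adjusted p = 0.73 in limma) and RMI1 by -0.02 (adjusted p = 0.96). On the other side, NTRK2 differed by -1.93 (adjusted p = 0.20) and AGTPBP1 by 0.66 (adjusted p = 0.091). None of the 4 was called in limma. DESeq2 on the recovered reads called NTRK2 lower (-2.88, adjusted p = 0.017) and AGTPBP1 higher (0.70, adjusted p = 0.031). In limma, NTRK2 was called without control replicate 2 (-2.81, adjusted p = 0.031) and AGTPBP1 without IRF8 KO replicate 3 (0.84, adjusted p = 0.035). NTRK2 was read at 53.9, 2.59, 85.9 and 13.2 normalized counts in control and at 5.33, 5.73, 8.13 and 1.97 in the knockout, so the groups overlapped through the low control replicate 2.

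The 5 genes with profiles most like that of SLC28A3 were PDE4B, SEMA3E, CMBL, NME8 and COL4A2. Likeness was the root mean square difference of the log2 values over the 8 libraries after centering each gene, and it was 0.86 for PDE4B, 1.04 for SEMA3E, 1.06 for CMBL, 1.11 for NME8 and 1.13 for COL4A2. All 5 were at most 21.7 normalized counts in any control library. PDE4B, a phosphodiesterase that degrades cyclic AMP, ranged from 0 to 0.942 in control and from 151 to 1113 in the knockout. COL4A2, a basement membrane collagen chain, ranged from 10.5 to 21.7 in control and from 367 to 2634 in the knockout. The choice rests on the measure of likeness and carries no test.

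The other 2 carriers gave no call. SLC29A1, the main equilibrative carrier for nucleosides in most cells, was read at 14972, 3606, 14195 and 4563 normalized counts in control replicates 1 to 4. In the knockout it was read at 9875, 7245, 12476 and 6576, inside the range of the controls. The means were 9334 ± 6082 and 9043 ± 2695 (SD, n = 4), and the log2 difference was 0.19 (95% interval -0.91 to 1.29, adjusted p = 0.85 in limma, exact two-sided permutation p = 0.74). This sign turned in edgeR and DESeq2, at -0.039 and -0.040. The interval is wide because the controls differed among themselves by a factor of 4.15. As a fold, it reaches from 0.53 to 2.44.

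SLC29A2, the second equilibrative carrier, was read at 58.7, 115.6, 45.1 and 119.6 normalized counts in control and at 19.2, 57.3, 59.6 and 68.9 in the knockout. The lowest value was that of IRF8 KO replicate 1, and the groups overlapped. The log2 difference was -0.74 (95% interval -1.84 to 0.36, adjusted p = 0.34 in limma, exact permutation p = 0.26). It was negative in 3 of the 4 pairs with the same replicate number and positive in pair 3. Without IRF8 KO replicate 1 it was -0.33.

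SAMHD1 hydrolyzes deoxynucleoside triphosphates, cytarabine triphosphate among them. It was read at 8920, 4535, 8619 and 5720 normalized counts in control replicates 1 to 4 and at 2040, 955, 1293 and 893 in the IRF8 KO replicates. The highest knockout value was below the lowest control value. The mean was 6949 ± 2161 in control and 1295 ± 527 in the knockout (SD, n = 4), or 18.6% of control, and the log2 difference was -2.45 (SE 0.31), given without a test. In pairs with the same number it ran from -2.74 to -2.13.

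SAMHD1 lies on chromosome 20, where the median log2 difference of the 351 tested genes was -0.92. Of these genes 214 were called lower and 5 higher. The chromosome median, centered on the controls, was -0.92, -0.91, -0.91 and -0.95 in IRF8 KO replicates 1 to 4 and between -0.02 and 0.02 in the controls, so it hardly varied within a group. Relative to that median, SAMHD1 was at -0.79, -1.90, -1.46 and -1.95 in the knockout replicates. The mean difference from control on this scale was -1.52, against -2.45 without the correction. Among chromosome 20 genes, 23 (6.55%) had a difference as low as that of SAMHD1, and among all tested genes 338 (2.58%). These ranks rest on the values that chose the gene and are a description.

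**Figure D2:**
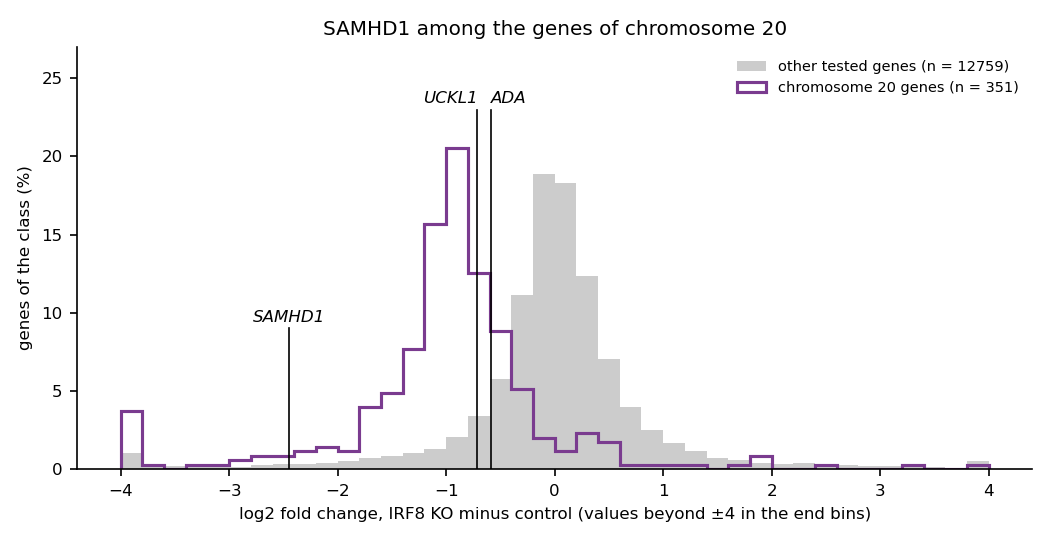
Distribution of log2 fold changes (IRF8 KO minus control, x axis) as the percent of genes in each class (y axis), for the 351 tested chromosome 20 genes (purple outline) and the other tested genes (gray). Vertical lines mark SAMHD1, UCKL1 and ADA, all on chromosome 20; the chromosome 20 genes center on -0.92, UCKL1 and ADA lie near that center, and SAMHD1 lies at -2.45 in the lower tail.

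The neighbors of SAMHD1 did not move alike. SOGA1 was lower at a log2 difference of -1.48 (adjusted p = 0.0024 in limma) and RBL1, a pocket protein related to the retinoblastoma protein, at -0.81 (adjusted p = 0.034). Without control replicate 1, control replicate 3 or IRF8 KO replicate 1, 3 or 4, RBL1 was no longer called, with adjusted p up to 0.090. DSN1, a kinetochore subunit, differed by -0.29 (adjusted p = 0.43), and RPN2, a subunit of the oligosaccharyltransferase, by -0.08 (adjusted p = 0.74). The difference of SAMHD1 was more negative than that of any of these 4 neighbors, from which nothing is read, since its values chose the gene.

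The balance of SAMHD1 to DCK, the enzyme that starts cytarabine activation, was read within each library. There were 202, 138, 203 and 154 SAMHD1 counts per 100 DCK counts in control replicates 1 to 4. In the knockout there were 55.7, 23.8, 37.4 and 23.2. The ratio carries the SAMHD1 values that chose the gene and is a description. It does not compare the abundance of the 2 transcripts, because no transcript lengths were used.

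DCK itself was among the steadiest of the genes. It was read at 4408, 3284, 4248 and 3704 normalized counts in control and at 3659, 4008, 3456 and 3857 in the knockout, with all 4 knockout values inside the range of the controls. The means were 3911 ± 516 and 3745 ± 240 (SD, n = 4). The log2 difference was -0.06 (95% interval -0.34 to 0.23, adjusted p = 0.82 in limma, exact permutation p = 0.60). As a fold, the interval reaches from 0.79 to 1.17.

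CMPK1, the cytidylate kinase of the next step, was read at 12941, 11648, 12807 and 11816 normalized counts in control. In the knockout it was read at 10108, 11582, 10198 and 9680. The groups did not overlap, but IRF8 KO replicate 2 was only just below the lowest control. The knockout mean was 84.5% of control, with a log2 difference of -0.25 (95% interval -0.48 to -0.01, adjusted p = 0.14 in limma). The exact two-sided permutation p was 0.029, the smallest that 4 against 4 libraries can give. Every gene without overlap reaches this p, and 25.3% of all tested genes had no overlap. DESeq2 on the recovered reads gave an adjusted p of 0.0496. The control values had a log2 SD of 0.08, and 91.3% of tested genes had a larger one.

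CDA, the deaminase that turns cytarabine into an inactive uridine analog, was read at 34.6, 6.90, 46.2 and 15.1 normalized counts in control and at 105.5, 13.4, 55.5 and 41.3 in the knockout. Each knockout library was above the control of the same number, while the groups as a whole overlapped. The log2 difference was 1.03 (95% interval -0.63 to 2.68, adjusted p = 0.39 in limma, exact permutation p = 0.26), and the adjusted p was 0.058 once same-numbered libraries were blocked. The pairwise differences were 1.58, 0.86, 0.26 and 1.40. Leaving out 1 library moved the difference from 0.54, without control replicate 2, to 1.56, without IRF8 KO replicate 2, and it was 0.60 without IRF8 KO replicate 1. Control replicate 2 rests on 8 reads, so the lowest value is known only roughly.

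NT5C2, the nucleotidase, was read at 3162, 5436, 2959 and 4624 normalized counts in control and at 4185, 4585, 2995 and 5083 in the knockout. The knockout values lay within the control range. The log2 difference was 0.08 (95% interval -0.46 to 0.62, adjusted p = 0.87 in limma, exact permutation p = 0.86).

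RRM1 and RRM2 encode the large and the small subunit of ribonucleotide reductase, and RRM2 is known to peak in S phase. The promoters below are shown because RRM2, RRM1 and SAMHD1 were the 3 members with a CCAAT box, the pentamer bound by NF-Y, and CMPK1 the 1 member with a composite ETS-IRF motif, the kind of element that IRF8 binds together with PU.1. Each run is the 250 bases before an annotated start in RefSeq, build GRCh38.p14, 5′ to 3′ on the strand of the gene, with CCAAT or the composite in capitals.
RRM2, chr2:10122489-10122738, plus strand: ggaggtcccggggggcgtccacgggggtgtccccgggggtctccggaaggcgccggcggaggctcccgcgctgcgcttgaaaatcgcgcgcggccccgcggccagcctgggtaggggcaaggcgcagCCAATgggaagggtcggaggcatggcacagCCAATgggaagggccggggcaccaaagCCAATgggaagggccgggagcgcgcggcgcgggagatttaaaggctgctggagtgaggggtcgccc
RRM1, chr11:4094435-4094684, plus strand: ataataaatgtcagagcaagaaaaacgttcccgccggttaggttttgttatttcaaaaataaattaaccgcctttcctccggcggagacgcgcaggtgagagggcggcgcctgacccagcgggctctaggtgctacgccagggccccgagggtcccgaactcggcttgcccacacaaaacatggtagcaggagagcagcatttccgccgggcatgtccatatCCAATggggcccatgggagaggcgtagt
SAMHD1, chr20:36951709-36951958, minus strand: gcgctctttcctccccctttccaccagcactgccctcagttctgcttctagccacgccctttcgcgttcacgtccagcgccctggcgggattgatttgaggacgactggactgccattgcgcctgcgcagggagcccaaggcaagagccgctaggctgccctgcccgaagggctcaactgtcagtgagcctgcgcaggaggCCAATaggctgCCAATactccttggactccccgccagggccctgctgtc
CMPK1, chr1:47333540-47333789, plus strand: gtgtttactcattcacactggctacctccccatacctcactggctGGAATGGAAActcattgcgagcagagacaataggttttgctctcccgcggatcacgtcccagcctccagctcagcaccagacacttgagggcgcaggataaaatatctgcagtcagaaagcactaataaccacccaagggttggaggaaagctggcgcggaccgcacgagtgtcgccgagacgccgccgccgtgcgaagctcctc

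The RRM2 promoter shown held 3 CCAAT boxes, beginning 123, 93 and 66 bases before the start. A second RefSeq entry for RRM2, not shown, held 1, beginning 249 bases before its own start. The RRM1 promoter held 1, beginning 28 bases before the start, and the SAMHD1 promoter 2, beginning 49 and 38 bases before it. CCAAT on either strand was found in 11240 of the 35116 RefSeq promoters of the same length, so its presence in a member is common. The composite was searched as GGAA and GAAA 2 bases apart on either strand, and it occurred in 2.41% of promoters and in 1 of the 8 members with an entry, CMPK1, beginning 205 bases before the start. GAAA repeated 2 bases apart, as in interferon-response elements, occurred in 3.02% of promoters and in 0 of the 8 members. The 8 members had 12 entries, and a match in any of them was counted for a member. Such matches describe these windows alone. SLC28A3 and SLC29A2 had no entry in the promoter table.

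RRM1 was read at 16485, 5252, 16747 and 7409 normalized counts in control replicates 1 to 4 and at 12806, 10047, 12116 and 9343 in the IRF8 KO replicates. RRM2 was read at 26018, 6746, 28217 and 10610 in control and at 14921, 10651, 16921 and 12207 in the knockout. For both subunits, control replicates 1 and 3 were above all knockout libraries, and control replicates 2 and 4 were below all of them. The log2 difference of RRM1 was 0.11 (95% interval -0.73 to 0.95, adjusted p = 0.88 in limma, exact permutation p = 0.86), and it turned to -0.047 in edgeR and -0.045 in DESeq2. The difference of RRM2 was -0.17 (95% interval -1.17 to 0.83, adjusted p = 0.85, exact permutation p = 0.80). Neither interval is narrow enough to exclude a change of 1.5-fold in either direction.

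The spread among the controls was large for these 2 genes and for SLC29A1, and also for CDA and SLC28A3, which were read at low control counts. The highest control was 6.69 times the lowest for CDA and 4.49 times for SLC28A3. It was 4.18 times the lowest for RRM2, 4.15 times for SLC29A1 and 3.19 times for RRM1, against 1.34 times for DCK and 1.11 times for CMPK1. The log2 SD of the controls was 1.01 for RRM2, where 5.58% of tested genes had a larger one and the median gene had 0.28. In the knockout the same SD was 0.30 for RRM2, 0.22 for RRM1 and 0.42 for SLC29A1, but 1.21 for CDA and 0.53 for SLC28A3. The pattern was shared: control replicates 1 and 3 were both above 2 and 4 in 7 of the 10 genes and both below in 3, and over all tested genes the 2 orders took 39.2% and 42.0%.

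The summed level of 40 S phase genes, with the members left out, split the libraries alike. It was 434873, 207001, 426320 and 259473 normalized counts in control replicates 1 to 4 and 355139, 315719, 373245 and 308759 in the knockout. Control replicates 1 and 3 were highest and 2 and 4 lowest, with the knockout between them. Of the 40 genes, 0 were called higher and 1 lower, and their median log2 difference was 0.02. The 54 G2M phase genes gave 0 calls in either direction and a median of -0.12. The part of the cell cycle in the RRM1, RRM2 and SLC29A1 values was not tested.

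Per S phase sum, RRM2 was 5.98%, 3.26%, 6.62% and 4.09% in control and 4.20%, 3.37%, 4.53% and 3.95% in the knockout. The groups overlapped on this scale as well. RRM1 was between 2.54% and 3.93% of the sum in control and between 3.03% and 3.61% in the knockout. For DCK the ratio ran the other way, with 1.01%, 1.59%, 0.997% and 1.43% in control, since its level varied less than the sum.

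**Figure D3:**
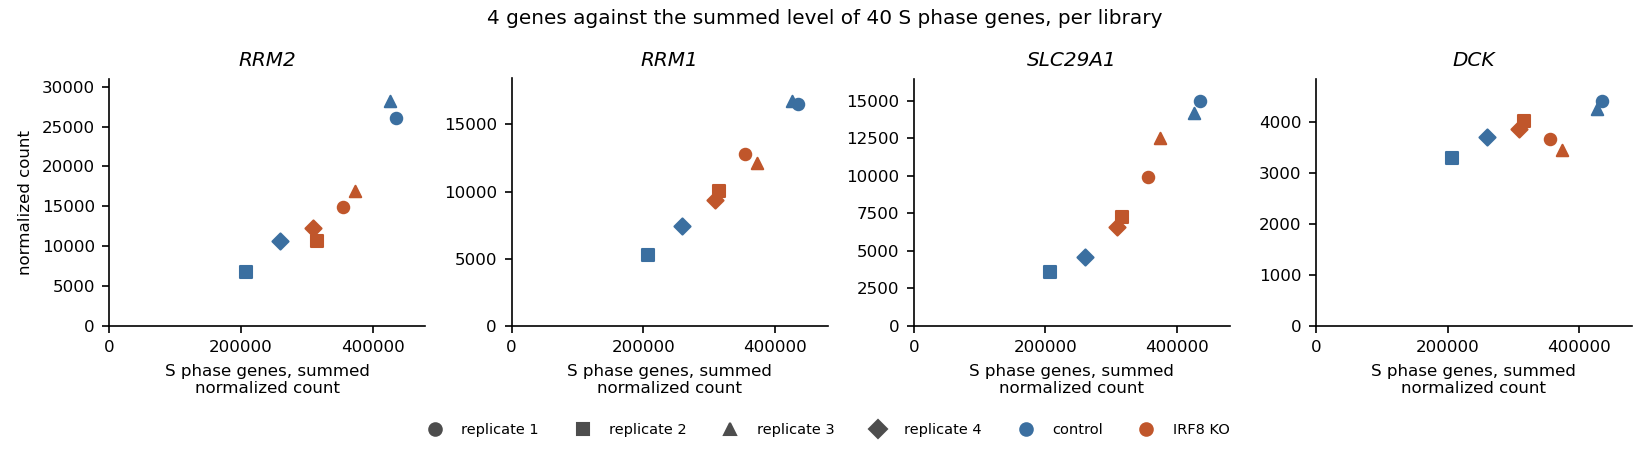
Normalized counts of RRM2, RRM1, SLC29A1 and DCK (y axes) against the summed normalized count of 40 S phase genes (x axes), 1 point per library, with control in blue, IRF8 KO in orange and symbols for the replicate number. RRM2, RRM1 and SLC29A1 are highest in control replicates 1 and 3, where the sum is 434873 and 426320, and lowest in control replicate 2, where it is 207001, while DCK stays between 3284 and 4408.

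Pairs of libraries with the same replicate number went in opposite directions for several members. For RRM1 the knockout-minus-control differences were -0.36, 0.94, -0.47 and 0.33 on the log2 scale in pairs 1 to 4. For RRM2 they were -0.80, 0.66, -0.74 and 0.20, and for SLC29A1 -0.60, 1.01, -0.19 and 0.53. Pairs 1 and 3 were negative and pairs 2 and 4 positive in all 3 genes, and likewise in DCK. Only SLC28A3, CDA, SAMHD1 and CMPK1 had 1 sign in all 4 pairs, and CMPK1 was close to 0 in pair 2 (-0.008). SLC28A3 and SAMHD1 were chosen by their values. The share of all tested genes with 1 sign in all 4 pairs was not counted, so nothing is read from this.

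**Figure D4:**
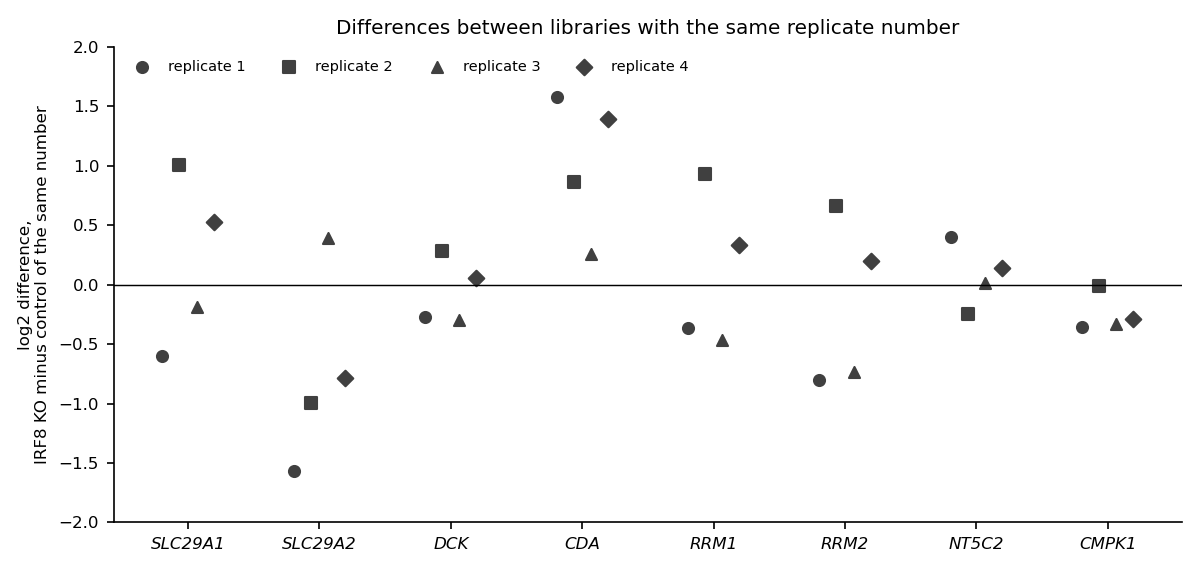
Log2 differences, IRF8 KO minus the control library of the same replicate number (y axis), for the 8 members that were tested, with 1 symbol per replicate number. CDA is above 0 in all 4 pairs and CMPK1 below 0 in all 4, at -0.01 in pair 2, while SLC29A1, DCK, RRM1 and RRM2 are split between the pairs.

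The wider pathway was read in 59 further genes, of which 52 were tested. In limma, 1 was called higher and 2 lower, and 49 were not called, with a median log2 difference of 0.02. Among all tested genes 8.65% were higher and 9.56% lower. Of the 59, 4 are also S phase genes of the list above.

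The gene called higher was ABCC10, an ABC exporter of the multidrug resistance protein family. It was read at 2756, 2915, 2706 and 2956 normalized counts in control and at 3529, 3301, 3988 and 4044 in the knockout, without overlap. The log2 difference was 0.39 (SE 0.11, adjusted p = 0.040 in limma). Leaving out any 1 library other than IRF8 KO replicate 2 ended the call, with adjusted p up to 0.11. So did upper quartile scaling (adjusted p = 0.062), quantile normalization (0.054), no filter on low values (0.056) and no variance trend (0.056). The other 2 tested exporters, ABCC4 and ABCC5, differed by 0.24 and -0.11 and were not called in limma.

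DCTD deaminates deoxycytidylate and can also act on cytarabine monophosphate. It was read at 4931, 5320, 5082 and 4824 normalized counts in control and at 2561, 3649, 3161 and 3755 in the knockout, each knockout value below each control. The knockout mean was 65.1% of control (log2 difference -0.63, SE 0.14, adjusted p = 0.014 in limma). The call held without each library in turn, with adjusted p from 0.017 to 0.039.

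UCKL1, a uridine-cytidine kinase-like protein encoded on chromosome 20, was read at 1598, 1396, 1569 and 1174 normalized counts in control and at 848, 811, 983 and 844 in the knockout. The groups did not overlap, and the log2 difference was -0.71 (SE 0.14, adjusted p = 0.0081 in limma). This is a smaller difference than the chromosome 20 median of -0.92. Among the 13 kinases it was the 1 gene called in limma with all 8 libraries and without the block. DGUOK was called higher by edgeR (adjusted p = 0.049), by DESeq2 (adjusted p = 0.0090) and in limma without IRF8 KO replicate 2 (adjusted p = 0.048). UCK1 was called lower by DESeq2 (adjusted p = 0.025).

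In the fit that blocked on the replicate number, 7 of the 52 were called higher and 4 lower, beside 14.2% and 14.6% of all tested genes. The higher genes were ABCC10, DGUOK, NME1, PNP, DUT, PRIM2 and POLD2, and the lower genes UCKL1, DCTD, ADA and CAD, of which all but ABCC10, UCKL1 and DCTD are named after their values were seen. PNP, which splits purine nucleosides, was read at 6875, 2980, 6340 and 3352 in control and at 13299, 4670, 10536 and 6199 in the knockout. Each knockout library was above the control of the same number, while the groups overlapped (log2 difference 0.80, adjusted p = 0.20 in limma without the block and 0.0016 with it). The pairing behind the block was taken from these data and is not given by the labels. DUT, which hydrolyzes deoxyuridine triphosphate, gave 0.72 (adjusted p = 0.056 without the block and 0.0075 with it). NME1 overlaps a readthrough transcript with NME2, so its counts are uncertain.

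In limma with all 8 libraries and without the block, the 13 replicative polymerase genes and the 10 genes of the deoxynucleotide pool gave 0 calls. DESeq2 called DUT higher (adjusted p = 0.023) and CAD (adjusted p = 0.025) and RRM2B (adjusted p = 0.039) lower, and DUT was also called with upper quartile scaling (adjusted p = 0.040) and quantile normalization (adjusted p = 0.036) in limma. In limma, DUT was called higher without control replicate 1 (adjusted p = 0.047) or 3 (adjusted p = 0.039). Without control replicate 2, CAD was called lower (adjusted p = 0.048). Of the polymerase genes 10 had a positive and 3 a negative difference, with a median of 0.20. The pool genes had 5 of each sign and a median of -0.09. TYMS, thymidylate synthase, was read at 5511, 1666, 5391 and 2354 normalized counts in control and was picked after its values were seen. Like RRM2, it was higher in control replicates 1 and 3 than in 2 and 4, as were 39.2% of all tested genes. Its log2 difference was -0.17 (adjusted p = 0.82 in limma).

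The largest difference among the wider genes was that of NT5C3B, a cytosolic nucleotidase, also named after its values were seen. It was read at 952, 782, 922 and 735 normalized counts in control and at 1.07, 15.3, 473 and 434 in IRF8 KO replicates 1 to 4. The knockout libraries thus fell into a pair near 0 and a pair between 434 and 473. The groups did not overlap, but the spread within the knockout left the gene uncalled (log2 difference -4.04, SE 1.59, adjusted p = 0.12 in limma, exact permutation p = 0.029, adjusted p = 0.054 with the block). Every gene without overlap reaches that permutation p. The size depended on the fit and the libraries, at -1.88 in edgeR, -1.87 in DESeq2, -2.50 without IRF8 KO replicate 1 and -5.11 without IRF8 KO replicate 3.

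**Figure D5:**
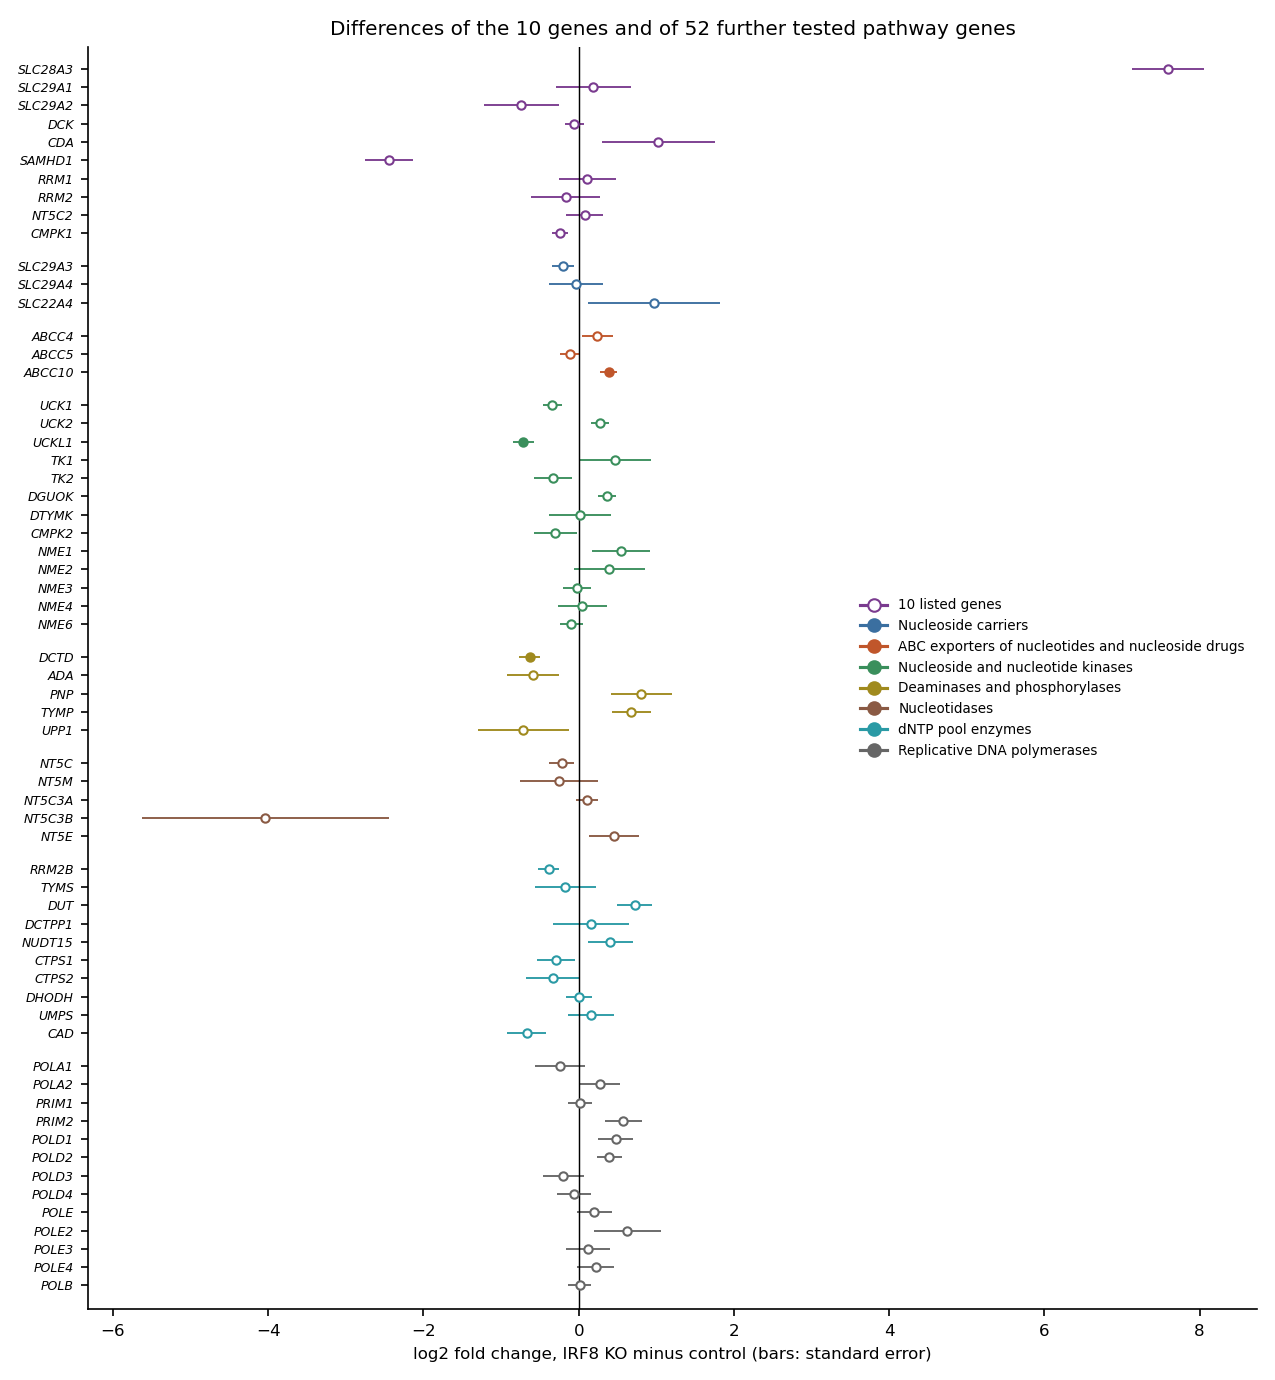
Log2 fold changes (IRF8 KO minus control, x axis) of the 10 genes and of the 52 tested wider pathway genes, grouped by list, with bars of 1 standard error. Filled points are the 3 wider genes called at an adjusted p below 0.05 (ABCC10, UCKL1 and DCTD); the 10 genes are drawn open, since SLC28A3 at 7.59 and SAMHD1 at -2.45 carry no test and the other 8 were not called.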

How the data were processed

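RNA of MV4-11 cells was made into 4 control and 4 IRF8 KO stranded mRNA libraries. According to the methods, the authors used RNA-Star 2.7.2b with GENCODE v32 for alignment, featureCounts 2.0.1 for gene counts and DESeq2 for normalization. Which genome build the RNA-Seq data used was not given. The deposited signal values are these counts divided by 1 size factor per library, for 19590 genes, of which 2197 were 0 throughout. In each library 100% of the values were whole reads, within 0.01 reads, once divided by the value of a single read, so depth is known and reads could be recovered for count tests. Columns named WT were taken as control libraries, matched by replicate number. The authors' table of the comparison (mean, fold change, error, Wald statistic and p-values) was not used. The 2 IRF8 ChIP-Seq samples were not analysed here.

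Differences were fitted with limma 3.58.1 (trend, robust; R 4.3.3) on log2(normalized count + 1). This covered 13110 genes averaging 10 or more normalized counts, with Benjamini-Hochberg adjustment over all of them and a call at an adjusted p below 0.05. Folds of low genes come out too small on this scale. For single genes, the log2 values of both groups were also compared by exact permutation, two-sided. Permutation treats the libraries of a group as exchangeable, while control 1 correlated with control 3 at 0.996 and with control 2 at 0.954 in log2 values. The scripts were tested on simulated data. Alternatives were other pseudocounts, filters and scalings, no variance trend, count fits to the recovered reads (edgeR 4.0.16, DESeq2 1.42.0), a replicate block, and leaving out each library. Deviations from the group mean correlated between same-numbered libraries at 0.37, 0.48, 0.45 and 0.50, so the numbers were taken as pairing the libraries. This pairing comes from the data and is not particular to the number: control 1 with IRF8 KO 3 gave 0.47, control 3 with IRF8 KO 1 0.41, control 2 with IRF8 KO 4 0.40 and control 4 with IRF8 KO 2 0.41, so replicates 1 and 3 deviated together, as did 2 and 4.

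The members, the wider pathway lists and the marker lists were chosen with earlier results of these data known. Named genes were IRF8, the 10 members, the wider genes past the threshold (at most the 14 of largest change), up to 2 tested neighbors on either side of SLC28A3 and SAMHD1, and the 5 genes closest in profile to SLC28A3. S phase and G2M phase genes came from Seurat 5.3.0. Chromosomes and promoters came from RefSeq (GRCh38.p14), with 12992 of the tested genes matched to a chromosome, and 8 of the 10 members had a promoter entry. Levels were not compared between genes.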

Additional observations from a re-analysis of the deposited data

Results flagged for a closer look

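In 54 groups of 4 libraries, covering the named genes, 2 had a library far from the other 3 (Dixon's test). For 4 independent, normally distributed values, about 1 group in 20 would do so by chance. That rate need not hold here, since control replicates 1 and 3 often split from 2 and 4. In both the gap is of 1 or 2 reads in genes of near-absent control level. PDE4B was at 0 in control replicate 3, against 0.804 to 0.942 normalized counts in the other controls. NME8 was at 1.61 normalized counts in control replicate 1, against 0 in the other controls.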

How the results depend on the processing

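Depth limits SLC28A3, CDA and SLC29A2, whose lowest libraries rest on few reads, and the spread of the controls limits SLC29A1, RRM1 and RRM2. Over all tested genes, 1134 were called higher and 1253 lower. With the replicate block, which rests on the pairing of same-numbered libraries, these were 1857 and 1912. The study's cutoffs (a 2-fold change and p below 0.01, taken here as before adjustment) gave 627 and 802 in limma. These are not the study's own counts, since it used DESeq2 and reported a larger total. Leaving out 1 library gave 755 to 1164 higher and 910 to 1278 lower, with the 755 reached without control replicate 1. Of the 8 tested members, 0 were called in either direction, and DESeq2 gave 1 lower. Leaving out 1 library gave 0 to 0, and the replicate block changed no call among the members.

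Of the wider pathway genes, 1 was called higher; without a filter on low values, without the variance trend and with the thresholds of the study it was 0, in edgeR 2, in DESeq2 4 and with the replicate block 7. Leaving out 1 library gave 0 to 3, with 0 without control replicate 2 or 4 or IRF8 KO replicate 1, 3 or 4, and 3 without IRF8 KO replicate 2. TYMP was called higher in DESeq2 (adjusted p = 0.028) and in limma without IRF8 KO replicate 2 (adjusted p = 0.014). Lower calls were 2, in DESeq2 5, with the replicate block 4, with the thresholds of the study 0, and 2 to 3 without 1 library. With upper quartile scaling or quantile normalization the higher gene was DUT in place of ABCC10. The block adds the calls of DGUOK, NME1, PNP, DUT, PRIM2, POLD2, ADA and CAD. The cause of these moves was not tested.

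The sign turned for members with differences near 0. SLC29A1 was at -0.039 in edgeR and -0.040 in DESeq2, RRM1 at -0.047 and -0.045. Without 1 library, SLC29A1 ran from -0.18 to 0.51, DCK from -0.14 to 0.0056, RRM1 from -0.21 to 0.35, RRM2 from -0.56 to 0.13, NT5C2 from -0.057 to 0.24, RMI1 from -0.20 to 0.11 and RPN2 from -0.18 to 0.0057. SLC29A2 ran from -0.998 to -0.33 and CDA from 0.54 to 1.56, without a change of sign. SAMHD1 relative to chromosome 20 ran from -1.77 to -1.38. IRF8 kept its direction, at -2.46 to -1.65, but passed the threshold narrowly: without control replicate 1 or 3 or IRF8 KO replicate 1 the adjusted p was 0.053 to 0.058. When only genes averaging 100 or more were kept, CDA and SLC29A2 were not tested.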
